A study of Mus musculus with 19 samples.

Results

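Avpr1a, the V1a receptor through which vasopressin acts on hepatocytes, was examined together with 9 other genes of the hepatocytes around the central vein: Glul, Axin2, Lgr5, Rnf43, Sp5, Tbx3, Oat, Slc1a2 and Aldh1a1. Their probes were found by RefSeq accession, and these 10 genes had 13 of the 55681 probes on the array. The genes were picked with earlier results of the same arrays known, and Avpr1a in particular was picked out by its change, so its differences are given below as sizes with no test. The livers came from 19 male mice of the transgenic strain 40.6, aged 10 weeks, sampled 3 days after dosing with DB[a,h]A (dibenz[a,h]anthracene), one of the polycyclic aromatic hydrocarbons and an activator of the aryl hydrocarbon receptor. Doses were 0, 6.25, 12.5 and 25 mg/kg, in 5, 5, 4 and 5 animals with 1 array each. The animals at 0 mg/kg are called controls, and all groups shared strain, sex, age and time. The labels describe the tissue as part of a liver and do not say which part. The transgene and the vehicle are not given in the sources used here.

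Each array compared liver RNA, in the red dye, with the same reference RNA, a mix from 11 lines of cultured mouse cells, in the green dye. Every value below is therefore a log2 ratio of liver over this reference unless a channel is named, and levels of different probes are not set against each other. A spot is called above background here where the scanner software flagged it as well above background, and liver spots were so at 35.5 to 56.7% of all spots per array. The arrays lay on 3 slides, each with all 4 groups, and the first principal component, with 41.8% of the variance, followed slide at 98.6%. Each slide was scanned once, so slide and scan cannot be told apart. For this reason a fit with slide as a block is given beside many differences. Of the kept probes, 238 of 29415 passed at 25 mg/kg with that block and 17 without it.

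Hepatocytes differ along the line from the portal vein to the central vein, and canonical Wnt signalling is the best known cue at the central end. Endothelial cells of the central vein release Wnt ligands and R-spondins, beta-catenin then accumulates in neighbouring hepatocytes, and with TCF/LEF factors it turns on pericentral genes. Glul makes glutamine from ammonia, Slc1a2 carries glutamate into the cell, and Oat, an aminotransferase of ornithine, feeds glutamate made from it into the same route. Aldh1a1 oxidises retinaldehyde, and Tbx3 is a T-box transcription factor of Wnt-activated liver cells. Axin2, Lgr5, Rnf43 and Sp5 are Wnt target genes in many tissues. Among them Axin2 and Rnf43 dampen the pathway, Lgr5 is a receptor for R-spondins, and Sp5 is a zinc finger transcription factor. Avpr1a couples to Gq proteins and raises calcium in the hepatocyte, which promotes breakdown of glycogen.

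In RefSeq (GRCm38.p6) Avpr1a lies on chromosome 10 from 122448499 to 122453453, and the others lie on chromosomes 1, 2, 5, 7, 10, 11 and 19. The RefSeq table of promoter windows, each 300 bases from 250 before to 50 after a start site, held 10 windows for 8 of the 10 genes, and none is given for Lgr5 or Tbx3. They were searched on both strands for the TCF/LEF core CTTTGNN in which each N is A or T, which gives 4 spellings that do not overlap one another. A core was present in 3 of the 10 windows, those of Sp5, Slc1a2 and of the upstream start of Aldh1a1, while 16.9% of all 32851 windows held at least 1. The Slc1a2 window is that of a start inside the gene, which begins at base 102658239 of chromosome 2. The windows of these 3 genes are shown because the members are Wnt-linked genes, and that of Avpr1a because the results turn on it. Capitals mark the cores, and all 4 windows are on the + strand:
Avpr1a, chr10:122448249-122448548: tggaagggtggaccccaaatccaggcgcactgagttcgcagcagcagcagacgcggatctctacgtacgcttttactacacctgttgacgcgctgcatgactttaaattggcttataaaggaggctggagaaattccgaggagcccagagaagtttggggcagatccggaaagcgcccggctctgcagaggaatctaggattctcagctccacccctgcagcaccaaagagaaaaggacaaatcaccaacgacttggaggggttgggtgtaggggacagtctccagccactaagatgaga
Sp5, chr2:70474673-70474972: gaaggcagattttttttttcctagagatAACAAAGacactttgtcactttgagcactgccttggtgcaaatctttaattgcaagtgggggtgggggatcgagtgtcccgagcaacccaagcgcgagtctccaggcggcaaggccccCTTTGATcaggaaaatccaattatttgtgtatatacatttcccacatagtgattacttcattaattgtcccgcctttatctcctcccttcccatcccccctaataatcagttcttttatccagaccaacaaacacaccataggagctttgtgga
Slc1a2, chr2:102706188-102706487: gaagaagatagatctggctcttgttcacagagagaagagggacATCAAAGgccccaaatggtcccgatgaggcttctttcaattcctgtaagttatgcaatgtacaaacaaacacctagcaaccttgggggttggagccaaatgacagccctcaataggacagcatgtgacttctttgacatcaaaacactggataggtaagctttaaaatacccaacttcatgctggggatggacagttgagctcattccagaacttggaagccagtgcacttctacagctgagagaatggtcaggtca
Aldh1a1, chr19:20492333-20492632: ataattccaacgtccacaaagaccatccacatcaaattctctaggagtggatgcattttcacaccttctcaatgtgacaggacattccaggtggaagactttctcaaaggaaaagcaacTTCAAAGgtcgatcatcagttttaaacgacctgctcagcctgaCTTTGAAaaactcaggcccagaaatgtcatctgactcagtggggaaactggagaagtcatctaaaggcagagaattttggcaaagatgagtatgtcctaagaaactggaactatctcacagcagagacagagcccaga
The Sp5 window held CTTTGTT on the opposite strand, between positions -222 and -216 before the start, and CTTTGAT between -104 and -98. Aldh1a1 had CTTTGAA at -131 to -125 on the opposite strand and again at -88 to -82. Slc1a2 had CTTTGAT on the opposite strand at -207 to -201. The Avpr1a window, like those of Glul, Axin2, Rnf43 and Oat, held none of the 4 spellings, which says only that these letters are not in these windows.

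Avpr1a was measured by 1 probe, whose liver signal was well above background on 19 of 19 arrays. Its log2 ratio was 4.90, 4.65, 4.84, 5.85 and 5.79 in controls. At 6.25 mg/kg it was 5.11, 4.77, 4.18, 4.52 and 4.33. The 4 animals at 12.5 mg/kg had 3.42, 4.24, 4.19 and 3.76, and the 5 at 25 mg/kg had 3.74, 4.39, 4.02, 3.83 and 4.48. Every animal at the higher doses of 12.5 and 25 mg/kg lay below every control, while the 6.25 mg/kg animals overlapped the controls. Of all kept probes, 0.962% lay wholly below control at 12.5 mg/kg and 0.741% at 25 mg/kg; the gene was chosen on this contrast, so nothing is read from those shares.

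**Figure D1:**
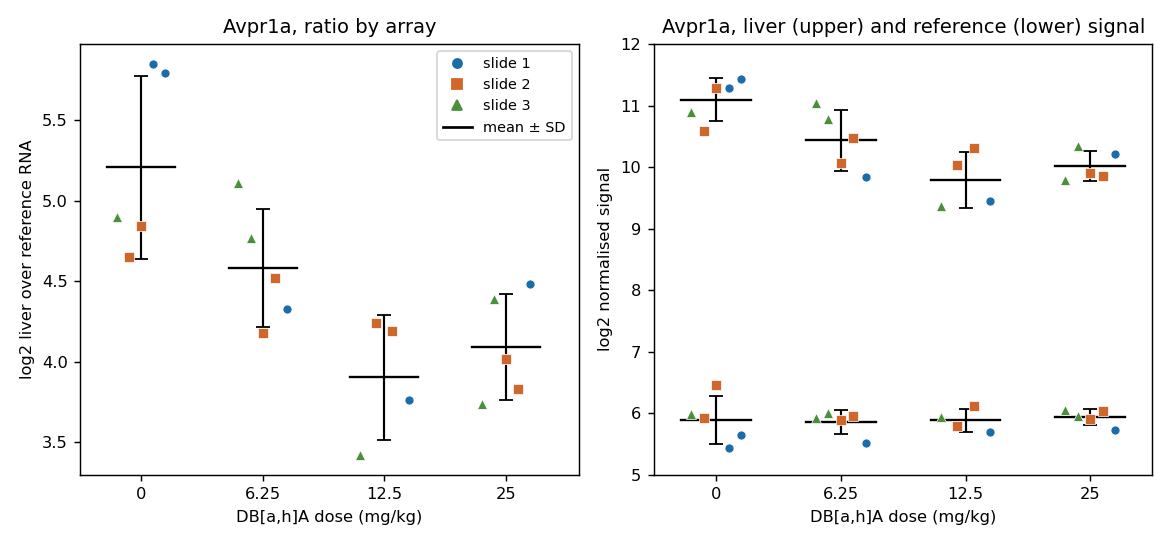
Avpr1a on the 19 arrays by dose: left, log2 ratio of liver over reference RNA; right, normalised log2 signal of the liver channel (upper points) and of the reference channel (lower points). Points are arrays, marked by slide, and bars are group means ± SD; the liver channel averaged 11.09 in controls and 9.79 to 10.44 at the doses, while the reference channel stayed between 5.85 and 5.93 on average.

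The group means of Avpr1a were 5.21 ± 0.57 in controls, 4.58 ± 0.37 at 6.25 mg/kg, 3.91 ± 0.39 at 12.5 mg/kg and 4.09 ± 0.33 at 25 mg/kg (SD, n = 5, 5, 4 and 5). In the fit over all arrays the difference from control was -0.62 ± 0.25 at 6.25 mg/kg, -1.30 ± 0.26 at 12.5 mg/kg and -1.12 ± 0.25 at 25 mg/kg (SE). These correspond to ratios 1.54-fold, 2.47-fold and 2.17-fold lower than control. The 12.5 and 25 mg/kg groups differed from each other by 0.18 ± 0.26, less than its standard error. From 6.25 mg/kg the 12.5 mg/kg group differed by -0.68 ± 0.26 and the 25 mg/kg group by -0.49 ± 0.25. With slide as a block the differences from control were -0.57, -1.25 and -1.06 at the 3 doses. The 3 doses together differed from control by -1.01 ± 0.21 (-0.96 with the block), and a straight line over dose fell by 0.043 ± 0.011 per mg/kg. Slide accounted for 12.6% of the variance of this probe, against a median of 41.2% over all kept probes.

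The difference was in the liver channel. Normalised liver signal of Avpr1a averaged 11.09, 10.44, 9.79 and 10.02 (log2) at 0, 6.25, 12.5 and 25 mg/kg, and the reference signal on the same spots averaged 5.89, 5.85, 5.88 and 5.93. Before normalisation the raw liver signal ran from 830 to 3015 in controls, 676 to 1710 at 6.25 mg/kg, 487.5 to 717 at 12.5 mg/kg and 556 to 1251.5 at 25 mg/kg. The reference spot was above background on only 12 of the 19 arrays, so the ratio is taken against a dim reference. With the scanner software's own processed signals the differences were smaller, at -0.16, -0.63 and -0.55 for the 3 doses.

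Within slides, the size of the Avpr1a difference varied. On slides 1, 2 and 3 the 6.25 mg/kg animals differed from the controls of the same slide by -1.49, -0.39 and 0.04. At 12.5 mg/kg the 3 differences were -2.06, -0.52 and -1.48. At 25 mg/kg they were -1.34, -0.82 and -0.84. All but that of 6.25 mg/kg on slide 3 lay below 0, and the doses on a slide share its controls. The 2 highest controls, 5.85 and 5.79, shared slide 1, and the lowest animal, 3.42 at 12.5 mg/kg, was on slide 3. On slides 1 and 3 each comparison had only 1 animal in at least 1 of its groups.

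Glul, Oat and Slc1a2, the genes of glutamine and glutamate handling, did not pass in any comparison with control. In the fit across all arrays, with Benjamini-Hochberg adjustment over all kept probes, 0 of the 10 tested probes of the 8 other genes passed at 6.25, 12.5 or 25 mg/kg. The background was equally sparse: 0% of all probes passed at 6.25 mg/kg, 0% at 12.5 mg/kg and 0.0578% at 25 mg/kg, and with slide as a block 0%, 0.0068% and 0.809%. At an unadjusted p under 0.05, limma gave 1, 2 and 0 of the 10 probes, and 4, 2 and 4 with the block. The shares of all probes at that limit were 5.57%, 4.21% and 7.37%, and 11.7%, 9.5% and 14.6% with the block. With the block, the 4 probes at 6.25 mg/kg and the 4 at 25 mg/kg each included the brightest and the second probe of Slc1a2. They therefore do not stand for 4 separate genes. For the 3 doses together against control and for the line over dose, 0 of the 10 probes passed in either fit, while 0.0374% and 0.0204% of all probes did (0.408% and 0.241% with the block).

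Glul ranged from 5.16 to 5.91 in controls, 5.28 to 5.98 at 6.25 mg/kg, 4.81 to 5.41 at 12.5 mg/kg and 5.22 to 5.66 at 25 mg/kg. Its differences from control were 0.05 ± 0.16, -0.30 ± 0.17 and -0.06 ± 0.16 at 6.25, 12.5 and 25 mg/kg, so the group ranges overlapped at every dose. Glutamine synthetase, the enzyme it encodes, is the classic marker of the innermost pericentral hepatocytes, and its adjusted p was 0.954 or more in limma (0.596 or more with the block). On the 3 slides the 12.5 mg/kg differences from control were -0.46, -0.18 and -0.14.

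Oat had 2.76, 2.62, 2.11, 2.18 and 2.12 in controls and 2.47, 2.88, 2.94, 2.92 and 2.81 at 6.25 mg/kg. At 12.5 mg/kg it had 2.19, 1.92, 2.22 and 2.34, and at 25 mg/kg 2.32, 1.89, 2.06, 2.85 and 2.45. Its highest values were thus mostly at 6.25 mg/kg, where 4 of the 5 animals exceeded every control, and all 4 animals at 12.5 mg/kg lay below all 5 at 6.25 mg/kg. The difference from control was 0.45 ± 0.17 at 6.25 mg/kg (limma adjusted p = 0.878; 0.322 with the block), -0.19 ± 0.18 at 12.5 mg/kg and -0.04 ± 0.17 at 25 mg/kg. On slides 1, 2 and 3 the 6.25 mg/kg difference was 0.66, 0.57 and -0.08.

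Slc1a2, the glutamate transporter GLT-1, had 3 probes. The brightest averaged 5.57 ± 0.59, 5.86 ± 0.58, 5.53 ± 0.74 and 5.75 ± 0.58 at 0, 6.25, 12.5 and 25 mg/kg (SD), and slide explained 81.1% of its variance and dose 5.33%. The differences of this probe from control were 0.28 ± 0.35, -0.04 ± 0.38 and 0.18 ± 0.35 at 6.25, 12.5 and 25 mg/kg, and 0.40, 0.12 and 0.29 with the block (lowest adjusted p = 0.284). The second probe had 0.33 ± 0.38, -0.24 ± 0.41 and 0.34 ± 0.38, and 0.43, -0.08 and 0.44 with the block (lowest adjusted p = 0.193). The dimmest was above background on only 4 arrays, 2 at 6.25 mg/kg and 2 at 25 mg/kg, and on none of the others, controls included. It was kept through those groups, so no direction is read from it.

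Aldh1a1 had 7.15, 6.60, 6.33, 6.86 and 6.58 in controls and 6.99, 6.84, 6.19, 6.24 and 6.59 at 6.25 mg/kg. It had 6.17, 5.89, 6.37 and 6.48 at 12.5 mg/kg, and 6.55, 6.65, 6.02, 6.56 and 6.40 at 25 mg/kg. The groups overlapped, and the values at 12.5 mg/kg were mostly low. The differences from control were -0.13 ± 0.18, -0.48 ± 0.19 and -0.27 ± 0.18 at 6.25, 12.5 and 25 mg/kg, with a limma adjusted p of 0.951, 0.999 and 0.823 (0.650, 0.298 and 0.294 with the block). All 9 within-slide differences lay below 0, from -0.98 to -0.13, and 3.79% of all kept probes did the same. The 3 doses on a slide share its controls, so these 9 differences are not independent.

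**Figure D2:**
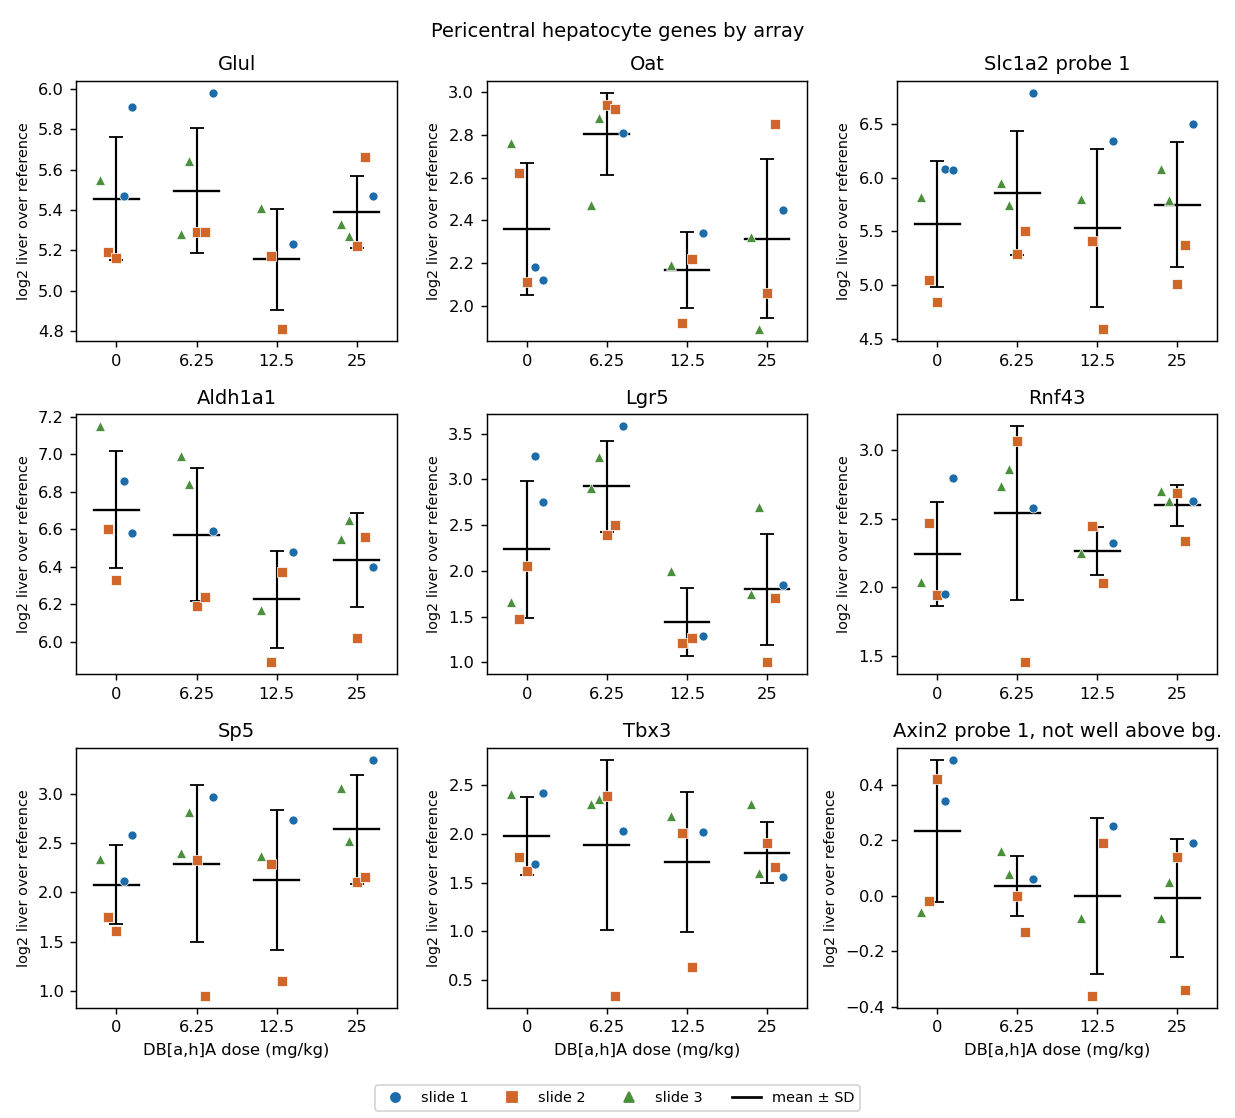
Log2 ratio of liver over reference RNA for 9 genes by dose (mg/kg), 1 panel a gene with its own axis; points are arrays, marked by slide, and bars are group means ± SD. Lgr5 and Oat stood highest at 6.25 mg/kg (means of 2.92 and 2.80), 1 or 2 low arrays of slide 2 widen the spread of Rnf43, Sp5 and Tbx3, and Axin2 was not well above background on any array.

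Among the Wnt target genes, Axin2 was not well above background and Lgr5 had the widest dose differences. Both Axin2 probes were above background in liver on 0 of 19 arrays, so no difference was tested. The second Axin2 probe was likewise not above background in the reference, while the first was on 11 arrays.

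Lgr5 had 1.66, 1.47, 2.05, 3.25 and 2.75 in controls and 2.91, 3.24, 2.39, 2.50 and 3.58 at 6.25 mg/kg. At 12.5 mg/kg it had 2.00, 1.21, 1.27 and 1.29, and at 25 mg/kg 1.75, 2.70, 1.0, 1.70 and 1.85. The controls were spread widely, with both high values on slide 1, and each dose overlapped them, but all 4 animals at 12.5 mg/kg lay below all 5 at 6.25 mg/kg. The difference from control was 0.69 ± 0.34 at 6.25 mg/kg (limma adjusted p = 0.891; 0.286 with the block), -0.79 ± 0.36 at 12.5 mg/kg (0.999; 0.420) and -0.44 ± 0.34 at 25 mg/kg (0.843; 0.526). The sign at 12.5 and 25 mg/kg was not the same on every slide: -1.71, -0.52 and 0.34 at 12.5 mg/kg and -1.15, -0.41 and 0.57 at 25 mg/kg, on slides 1, 2 and 3. At 6.25 mg/kg all 3 were above 0, at 0.58, 0.69 and 1.42. Its reference spot was above background on 0 of 19 arrays, and its liver spot on 18.

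The doses were compared with each other after the values were seen. Lgr5 differed by -1.48 ± 0.36 at 12.5 against 6.25 mg/kg (limma adjusted p = 1; -1.43 and 0.114 with the block) and -1.12 ± 0.34 at 25 against 6.25 mg/kg (1; 0.701 with the block). Oat stood at -0.64 ± 0.18 and -0.49 ± 0.17 in the same comparisons (adjusted p = 1 for each; 0.199 and 0.827 with the block). Lgr5 and Oat were the 2 of the 10 probes whose 12.5 mg/kg values lay wholly below those at 6.25 mg/kg, as did 0.867% of all kept probes. None of these differences passed. Of all probes, 0% passed in both comparisons, and 0.0034% at 12.5 against 6.25 mg/kg with the block. By brightest probe, all 9 tested genes, Avpr1a included, were lower at 12.5 than at 6.25 mg/kg (median -0.34), as were 53.9% of all genes. All 9 were higher at 25 than at 12.5 mg/kg, where 45.7% of all genes were lower. On slide 1, 38.3% of liver spots were above background at 12.5 mg/kg and 52.4 to 56.7% on the other arrays. On slides 2 and 3 these shares overlapped. Their part in the differences was not tested.

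Rnf43, a ubiquitin ligase that removes Wnt receptors from the cell surface, averaged 2.24 ± 0.38, 2.54 ± 0.63, 2.26 ± 0.18 and 2.60 ± 0.15 at 0, 6.25, 12.5 and 25 mg/kg (SD). Sp5 averaged 2.08 ± 0.40, 2.29 ± 0.80, 2.13 ± 0.71 and 2.64 ± 0.55, and Tbx3 1.98 ± 0.40, 1.89 ± 0.87, 1.71 ± 0.72 and 1.81 ± 0.31. For all 3 genes the doses overlapped control. At 25 mg/kg the difference from control was 0.36 ± 0.23 for Rnf43 (limma adjusted p = 0.811; 0.509 with the block), 0.56 ± 0.36 for Sp5 (0.811; 0.228) and -0.17 ± 0.35 for Tbx3 (0.939; 0.792). On slides 1, 2 and 3 the 25 mg/kg differences were 0.26, 0.31 and 0.63 for Rnf43 and -0.49, 0.09 and -0.45 for Tbx3. The Tbx3 value on slide 1 rests on 1 treated array, 25 mg/kg replicate 5, whose Tbx3 spot was bright in both channels. Its normalised log2 signal was 11.13 in the reference and 12.69 in liver, where controls reached at most 9.58 and 11.98. With the liver channel alone the Tbx3 difference at 25 mg/kg was 0.2 in place of -0.17, so its sign is not read. The cause was not tested.

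**Figure D3:**
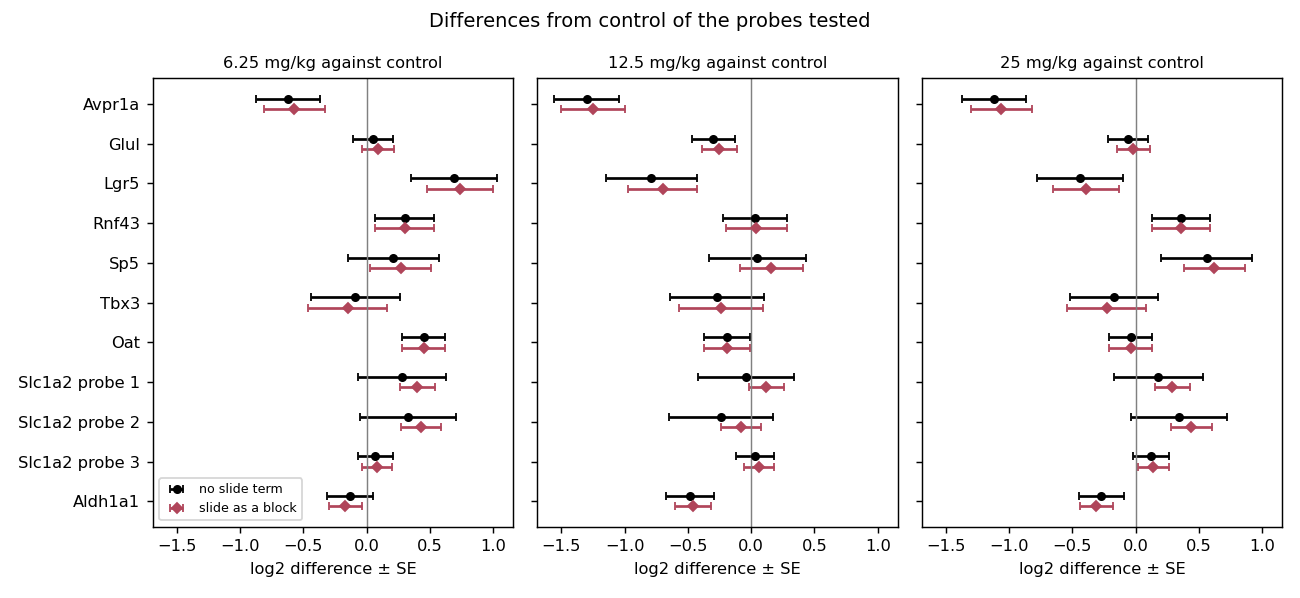
Log2 difference from control ± SE at 6.25, 12.5 and 25 mg/kg for the 11 tested probes, from the fit without a slide term (circles) and with slide as a block (diamonds). Avpr1a lies below 0 at each dose, from -1.30 to -0.62 without the slide term, and the other probes lie between -0.79 and 0.69 without it.

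These 3 genes varied together from array to array. After each slide's mean was taken off, Pearson's r over the 19 arrays was 0.77 between Rnf43 and Sp5, 0.68 between Rnf43 and Tbx3 and 0.64 between Sp5 and Tbx3. Spearman's rho was 0.66, 0.65 and 0.46. Each array's values share 1 hybridisation and 1 reference, and 36 pairs of members were looked at, so r is a description. On 2 arrays of slide 2 Tbx3 and Sp5 stood low together. At 6.25 mg/kg replicate 4 Rnf43 was low as well, with Tbx3, Sp5 and Rnf43 at 0.34, 0.95 and 1.45. At 12.5 mg/kg replicate 3 the 3 genes had 0.64, 1.10 and 2.03, and Rnf43 lay within its control range of 1.94 to 2.80. Without these 2 arrays r was 0.68, 0.50 and 0.31 for the same 3 pairs. On the same arrays Oat had 2.92 and 2.22, within the range of the other animals.

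**Figure D4:**
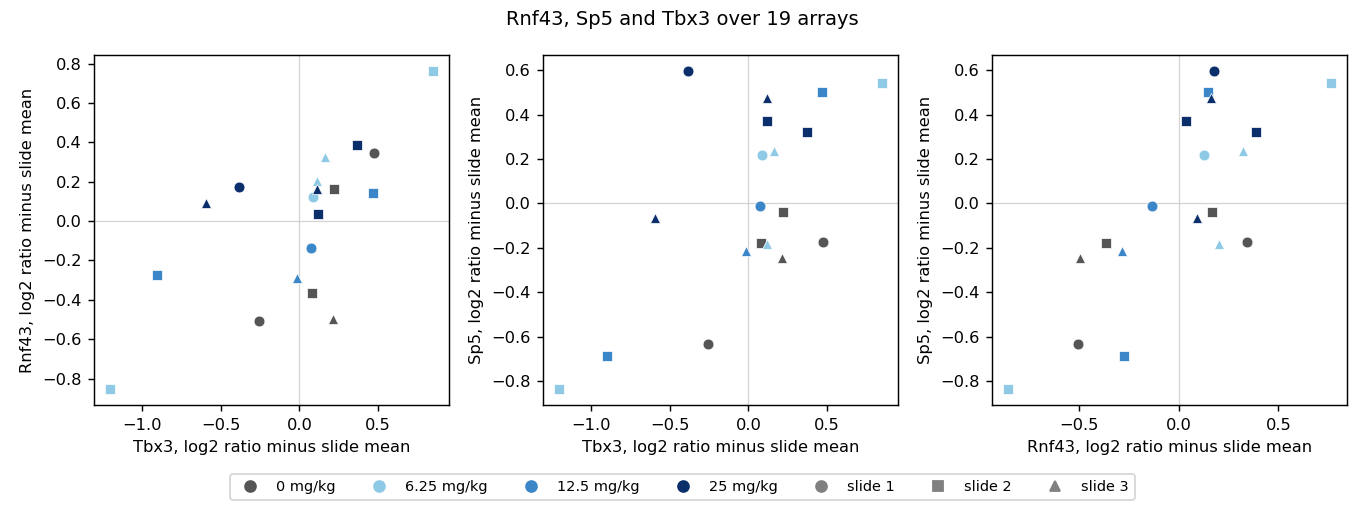
Each pair of Rnf43, Sp5 and Tbx3 over the 19 arrays, as log2 ratio minus the mean of its slide; colour is dose and marker shape is slide. The 2 arrays at the lower left, 1 at 6.25 and 1 at 12.5 mg/kg, both from slide 2, are the lowest for Tbx3.

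Among the members, Aldh1a1 varied most like Avpr1a. With slide means off, its r over the 19 arrays was 0.60 with Aldh1a1, 0.49 with Lgr5, 0.14 with Glul, 0.01 with Tbx3, -0.02 with Oat, -0.12 with Rnf43, -0.38 with Slc1a2 and -0.42 with Sp5. With dose means off as well, Aldh1a1 stood at 0.16 and Lgr5 at 0.33. Among 13543 genes with a value on every array, the 5 most like Avpr1a were Arl4a, a small GTPase of the Arf family (r = 0.93), Mreg, or melanoregulin (0.92), Chka, a choline kinase (0.92), Trim2, a ubiquitin ligase (0.92), and Chic1 (0.91). Those most opposite were Coq10b, a protein that binds coenzyme Q (-0.93), Pfkfb3, an enzyme that sets the pace of glycolysis (-0.91), and Usp2, a deubiquitinase (-0.89). With slide and dose means both off, r was 0.81, 0.84, 0.87, 0.81 and 0.76 for the first 5 genes. For the other 3 it was -0.95, -0.86 and -0.86. Without the 2 arrays farthest from the median of Avpr1a, r with these 8 genes kept its sign and was 0.88 or more in size. All share the arrays and the reference RNA. They were ranked by r with slide means off on these same 19 arrays, so the other r values are no separate check.

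The other Wnt genes were drawn from lists by role, and none passed without the slide block. Of 15 ligands, R-spondins and genes of ligand release, 10 were tested, with median differences of 0.03, -0.07 and -0.02 at 6.25, 12.5 and 25 mg/kg, where all 13812 genes had medians of 0, -0.02 and -0.01. The central vein ligand Wnt9b had -0.09 ± 0.10, -0.17 ± 0.10 and -0.21 ± 0.10 (lowest adjusted p = 0.673), Wnt5a had -0.25 ± 0.22, -0.39 ± 0.24 and -0.42 ± 0.22, and Wnt5b 0.45 ± 0.25, -0.06 ± 0.26 and 0.54 ± 0.25. Of 15 receptors and co-receptors 11 were tested, with medians of 0.13, 0.11 and 0.03. Lrp5, the co-receptor of Frizzled proteins, had -0.34 ± 0.17, -0.15 ± 0.18 and -0.39 ± 0.17 (lowest adjusted p = 0.608; 0.0765 with the block). The Frizzled receptor Fzd4 had 0.52 ± 0.35, 0.16 ± 0.37 and 0.65 ± 0.35, and Fzd7 0.49 ± 0.24, 0.12 ± 0.25 and -0.05 ± 0.24.

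Of 24 genes that carry the signal inside the cell, 22 were tested, and their medians were -0.03, 0 and -0.04 at the 3 doses. Bcl9l, a co-activator of beta-catenin, had -0.32 ± 0.15, -0.27 ± 0.15 and -0.29 ± 0.15. Gsk3a, a kinase of the complex that marks beta-catenin for breakdown, had 0.17 ± 0.14, 0.13 ± 0.15 and 0.29 ± 0.14. Of 16 inhibitors 11 were tested, with medians of 0.03, -0.02 and -0.03. Tle3, a co-repressor that binds TCF factors, passed at 25 mg/kg with slide as a block (0.41, adjusted p = 0.0426) and not without it (0.34 ± 0.15, adjusted p = 0.622). It was the 1 call among 162 places on the lists, in a fit where 0.809% of all kept probes passed at that dose. Nkd2, an inhibitor that binds Dishevelled, had 0.36 ± 0.16, 0.35 ± 0.17 and 0.20 ± 0.16, and Sfrp5, a secreted protein that binds Wnt ligands, had 0.24 ± 0.10, -0.04 ± 0.10 and 0.17 ± 0.10.

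On a list of the signalling chain of Avpr1a and related genes, Oxtr, Adra1b and Lnpep among them, 10 of 13 were tested. Of these 0 passed, and the medians were 0.04, -0.03 and 0.03. The sister receptors Avpr1b and Avpr2 were above background in liver on 0 and 1 of 19 arrays, and Avp, the vasopressin gene, on 0. Itpr1, a calcium channel opened by inositol trisphosphate, had 0.36 ± 0.14, 0.03 ± 0.14 and 0.38 ± 0.14 at 6.25, 12.5 and 25 mg/kg (lowest adjusted p = 0.446; 0.175 with the block). Prkca, a protein kinase C, had 0.27 ± 0.21, 0.28 ± 0.22 and 0.55 ± 0.21, and Plcb1, a phospholipase C activated by Gq, 0.34 ± 0.13, -0.11 ± 0.14 and 0.19 ± 0.13.

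None of the other zonated genes passed, and most lay below control without the slide block. Of all 13812 genes, 49.1%, 54% and 51.7% lay below control at 6.25, 12.5 and 25 mg/kg without it. Of 27 further pericentral genes 25 were tested: 16, 19 and 15 were lower at 6.25, 12.5 and 25 mg/kg, with medians of -0.07, -0.19 and -0.07, and with the block 5, 14 and 5 were lower, with medians of 0.12, -0.02 and 0.08. All 24 periportal genes were tested, and 16, 19 and 17 were lower, with medians of -0.11, -0.20 and -0.12. With the block 10, 14 and 11 of these periportal genes were lower, with medians of 0.07, -0.03 and 0.06. Among them Cdh1, the adhesion protein E-cadherin, had -0.45 ± 0.21, -0.66 ± 0.22 and -0.38 ± 0.21. The pericentral gene of smallest p was Lhpp, a phosphatase, with 0.50 ± 0.13 at 6.25 mg/kg (limma adjusted p = 0.786; 0.156 with the block). Zfp36l2, an RNA-binding protein, had 0.49 ± 0.17, 0.40 ± 0.18 and 0.22 ± 0.17 at 6.25, 12.5 and 25 mg/kg. Ahr, the receptor that binds DB[a,h]A, had 0.43 ± 0.19, -0.30 ± 0.20 and -0.21 ± 0.19.

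**Figure D5:**
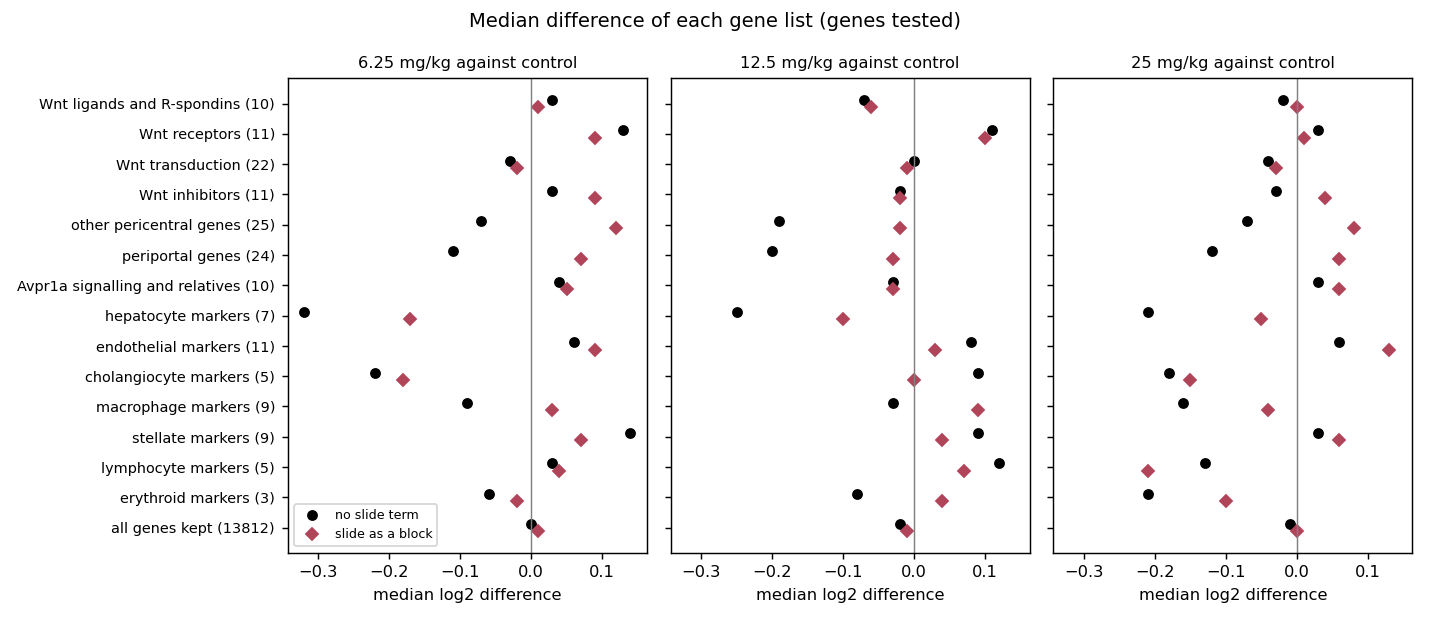
Median log2 difference from control of each gene list at 6.25, 12.5 and 25 mg/kg, without a slide term (circles) and with slide as a block (diamonds); the number of genes tested is in brackets. Hepatocyte markers and zonated genes lie left of 0 without the block, at medians from -0.32 to -0.07, and closer to or right of 0 with it.

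No marker of a liver cell type passed at any dose. The mean ratio of 7 general hepatocyte markers ran from 6.84 to 8.79 in controls, 6.88 to 8.28 at 6.25 mg/kg, 6.65 to 8.46 at 12.5 mg/kg and 6.83 to 8.28 at 25 mg/kg, so the livers carried strong hepatocyte signal at every dose. Without the slide block all 7 were lower than control at each dose, with medians of -0.32, -0.25 and -0.21, where 49.1%, 54% and 51.7% of all genes were lower. With the block 6, 5 and 5 of the 7 were lower, with medians of -0.17, -0.10 and -0.05, and 0 passed in either fit. The part of hepatocyte content in the Avpr1a difference was not tested. In whole tissue, fewer cells of a type and less RNA per cell cannot be told apart.

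Of the endothelial markers, whose cells include the Wnt source at the central vein, 11 of 11 were tested and had medians of 0.06, 0.08 and 0.06, with a mean ratio of 1.39 to 1.92 at the 3 doses and 1.56 to 1.96 in controls. Cholangiocyte, macrophage, stellate, lymphocyte and erythroid lists had 5 of 7, 9 of 10, 9 of 9, 5 of 8 and 3 of 5 genes tested. Their medians lay between -0.22 and 0.14 across the 3 doses, and 0 genes passed. Epcam was above background on 1 array and Cftr on 0, among the cholangiocyte markers, and Cd8a on 0 and Cd79a on 2 among the lymphocyte markers.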

How the data were processed

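Per the file headers, the scanner files hold red and green intensity as median signals on a linear scale, with the local background, from Feature Extraction 10.7.3.1, and a processed intensity from the same software. The deposited table holds log2 ratios of liver over reference whose making is not given in the sources used here; its columns correlated at 0.993 to 0.996 with loess ratios made here without background subtraction, with slopes of 0.986 to 0.993 and medians of -0.036 to -0.022, so its direction is liver over reference. The dyes were not swapped, per the labels.

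Median intensities, as deposited, were background corrected by normexp (offset 50) and loess normalised within each array, control spots having no weight (limma 3.58.1, R 4.3.3). Outlier-flagged spots were set to missing (0.132% of kept values) and spots of a probe were averaged. Probes above background in liver on at least 4 arrays, with at most 2 missing values, were kept: 29415 of 55681, standing for 13812 genes by their brightest probe. Symbols came from RefSeq accessions (GRCm38.p6), which named 47.4% of probes. Probe positions were not used.

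Group means were fitted by lmFit and eBayes over 19 arrays, two-sided, with Benjamini-Hochberg adjustment over all kept probes and a threshold of 0.05. Nothing says how animals were housed or dosed together, so p-values measure the spread between these animals. The fit was tested on simulated data. The number of arrays limits the precision.

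The members and lists were chosen with earlier results of these data known. Named are all 10 members, the 3 genes of smallest p of each list, though for some lists fewer are printed, and the 5 genes most and 3 least correlated with Avpr1a. The alternatives were slide as a block, no background subtraction, software-processed signals, the deposited log2 ratios, the liver channel alone, no filter, a filter on all 19 arrays, array weights, each array left out and differences within slides. Comparisons between doses, and correlations with dose means off, were added after the values were seen.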

Additional observations from a re-analysis of the deposited data

Results flagged for a closer look

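In each of the 44 groups of 4 or 5 arrays, 1 per tested probe and dose, the highest and the lowest array were set against the rest by Dixon's ratio of gap to range. In 5 groups an array stood apart, where chance gives about 1 group in 20. Lgr5 at 12.5 mg/kg replicate 1 had a log2 ratio of 2.00, with the nearest of the other 3 arrays at 1.29, and it was the only array of that dose on slide 3. Oat at 6.25 mg/kg replicate 1 had 2.47 and the nearest other array 2.81. Rnf43 at 25 mg/kg replicate 4 had 2.34 and the nearest other array 2.63. Tbx3 at 6.25 mg/kg replicate 4 had 0.34 and the nearest other array 2.03. Tbx3 at 12.5 mg/kg replicate 3 had 0.64 and the nearest other array 2.01. Both low Tbx3 arrays were on slide 2, and Sp5 was lowest of its group on each of them, at 0.95 and 1.10. Without 6.25 mg/kg replicate 4 the Tbx3 difference from control at 6.25 mg/kg was 0.29 in place of -0.09, and without 12.5 mg/kg replicate 3 that at 12.5 mg/kg was 0.09 in place of -0.27. Neither difference passed with or without the array.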

How the results depend on the processing

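No paired analysis was possible because replicate numbers were given in the order of the samples and pair no animals; slide, which holds all 4 groups, was the block used instead. The count of probes passing at 12.5 mg/kg was 0, 2 with slide as a block and 3 among probes above background on all 19 arrays. At 25 mg/kg it was 17, 238 with the block, 55 for the liver channel alone, 10 with no filter and 135 with array weights. For the doses together against control it was 11, 120 with the block, 28 for the liver channel alone and 5 with no filter. For the trend over dose it was 6, 71 with the block, 2 with software-processed signals, 11 for the liver channel alone, 2 with no filter and 93 with array weights. Leaving out 1 array at a time gave 0 to 5, 0 to 67, 0 to 17 and 0 to 83 probes for the same 4 comparisons, and 0 at 6.25 mg/kg; with the block they were 0 to 15, 25 to 320, 5 to 180 and 4 to 263, and 0 to 19 at 6.25 mg/kg. Without the block, the count at 25 mg/kg was 0 without 25 mg/kg replicate 1, 1 without control replicate 4 and 67 without 6.25 mg/kg replicate 5; the trend had 83 without that last array, and the doses together 0 without control replicate 1 or 4. The cause of these shifts was not tested. Between 12.5 and 6.25 mg/kg 1 probe passed with the block and 0 without it.

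Avpr1a kept its sign under the 27 other settings in each comparison with control. Leaving out 1 array gave -0.76 to -0.46 at 6.25 mg/kg, -1.44 to -1.14 at 12.5 mg/kg and -1.26 to -0.96 at 25 mg/kg, in each case lowest without control replicate 2; the highest was without control replicate 4, which at 12.5 mg/kg tied with 12.5 mg/kg replicate 1. With software-processed signals it was -0.16, -0.63 and -0.55, -0.45 for the doses together against -1.01, and -0.023 per mg/kg for the trend against -0.043; the cause was not tested. Of 30 dose differences of the other tested probes 18 kept their sign under the 27 fitted settings, or 26 where a probe was not above background on all arrays. The 12 that did not were 0.27 or less in size. The 30 include those of the dimmest Slc1a2 probe, kept through its 6.25 and 25 mg/kg groups, whose signs are not read. Differences within slides are not counted there. Among the 18, the sign was reversed on slide 3 for Lgr5 at 12.5 and 25 mg/kg and for Oat at 6.25 mg/kg. On that slide it was also reversed for the second Slc1a2 probe at 6.25 and 25 mg/kg. On slide 1 it was reversed for Oat at 12.5 mg/kg. On slide 2 it was reversed for Sp5 at 6.25 mg/kg and the second Slc1a2 probe at 12.5 mg/kg. No other member passed in any comparison with control or in the trend under any setting, the lowest adjusted p in limma being 0.193. Avpr1a, Lgr5 and Sp5 were read against dim reference spots, above background on 12, 0 and 4 arrays, which limits their ratios. The same holds for the second and the dimmest Slc1a2 probes, whose reference spots were above background on 0 arrays. That lowest adjusted p of 0.193 in limma belonged to the second Slc1a2 probe.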
